A study of Mus musculus with 5 samples.

Results

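The fibroblast growth factor (FGF) ligands, their receptors and the feedback genes that FGF signaling is known to switch on were measured in neural stem cells and in fibroblasts. The set held every gene whose symbol is Fgf followed by a number, Fgfr1 to Fgfr4, Fgfrl1, Spry1 to Spry4, Spred1 to Spred3, Etv1, Etv4, Etv5, Dusp4 and Dusp6. This gave 39 genes of the 24843 in the RNA-seq tables. They were taken by name, but the set was chosen with earlier results of these data known. NSC are primary neural stem cells from the mouse embryonic cortex (C57BL/6 in the labels, passages 5 to 8), grown as a monolayer on poly-ornithine and laminin in a serum-free neural medium with B27, heparin, 20 ng/ml EGF and 20 ng/ml bFGF, which is the product of Fgf2 (n = 2). STO is an immortalized mouse embryonic fibroblast line, also labelled C57BL/6 (n = 3). The authors' methods instead describe STO cells as derived from SIM mouse embryos and resistant to thioguanine and ouabain, so the 2 groups may differ in strain. STO was grown for more than 30 passages in high-glucose DMEM with 10% fetal bovine serum, with no FGF named in its medium. The comparison asks how a tissue stem cell and a somatic line differ. Cell type, culture medium and any difference of strain cannot be told apart in it. No source used here says whether replicates were separate cultures, so p-values measure only the spread between these samples.

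Secreted FGFs bind receptor tyrosine kinases together with heparan sulfate, and the receptors pass the signal through FRS2 and RAS to the kinases ERK1 and ERK2. ERK raises transcription of the PEA3 factors Etv1, Etv4 and Etv5 and of its own brakes, the Sprouty and Spred proteins and the phosphatases DUSP4 and DUSP6. In the developing cortex FGF signaling keeps progenitors dividing, and FGF2 with EGF maintains neural stem cells in culture, while in connective tissue fibroblasts are a main source of FGF7 and FGF10, which act on the neighbouring epithelium.

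Levels are FPKM, fragments per kilobase of transcript scaled to the depth of the library, summed over the transcripts of a gene, so that levels of genes can be compared with each other. Summed FPKM over all genes ranged from 385485 to 446393 per sample. Read as counting error and summed over all transcripts, the confidence bounds in the files imply 15223341 to 22271895 fragments per library. This is a rough guide to depth and not a count, since the reading was checked only for genes with 1 transcript. The 5 neural stem markers (Nes, Sox2, Pax6, Olig2 and Fabp7) summed to 3772 and 3985 FPKM in NSC and to 0.038 to 0.072 FPKM in STO, where 4 of the 5 were listed at 0 in every sample. The 6 fibroblast markers (Col1a1, Col1a2, Col3a1, Fn1, Thy1 and Pdgfrb) summed to 5.05 and 5.12 FPKM in NSC, where Col3a1 was listed at 0, and to 1352 to 1462 FPKM in STO. NSC also held astrocyte markers (Gfap, Aqp4 and Aldh1l1, 64.5 FPKM summed in each sample, against 0.150 to 0.219 in STO) and oligodendrocyte markers (Mbp and Mog, 83.9 and 88.8 FPKM summed against 0.046 to 0.163). Nearly all of the oligodendrocyte sum in NSC was Mbp (83.4 and 88.3 FPKM), and Mog held only 0.503 and 0.578 FPKM. The 4 neuron markers (Tubb3, Dcx, Rbfox3 and Syt1) summed to 14.3 and 16.1 FPKM in NSC and to 7.84 to 8.61 in STO. Nearly all of the STO sum was Tubb3, which was alike in both (9.25 and 8.14 FPKM in NSC, 7.84 to 8.57 in STO). Dcx (4.87 and 4.56 FPKM), Syt1 (1.34 and 1.18) and Rbfox3 (0.625 and 0.405) were held by NSC, and none exceeded 0.043 FPKM in STO. Microglial, endothelial and germ cell markers summed to at most 0.377 FPKM in any sample. The part of these cells in the results was not tested, and in bulk samples fewer cells of a type and less RNA per cell cannot be told apart.

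Of the 39 genes, 22 reached a mean of 1 FPKM in NSC or in STO and were tested by limma on log2(FPKM + 1) within the fit of all 12277 genes that did. All 22 differed at an adjusted p under 0.05, with 16 higher in NSC and 6 higher in STO. Read against the background this count is not particular to them, since 85.7% of all tested genes differed, 43.7% higher in NSC and 41.9% higher in STO. A difference of at least 1 on the log2 scale was reached by 11 genes higher in NSC, against 21.3% of all tested genes, and by 5 genes higher in STO, against 17.1%. The samples of NSC and STO did not overlap for any of the 22, which was so for 46.0% of all tested genes with NSC above and 43.9% with STO above. The median difference, STO minus NSC, was -0.99 over the 22 genes and -0.023 over all tested genes. With 2 samples against 3, an exact permutation test of any single value could not go below a two-sided p of 0.1, so the shares and sums given for groups of genes are descriptions.

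**Figure D1:**
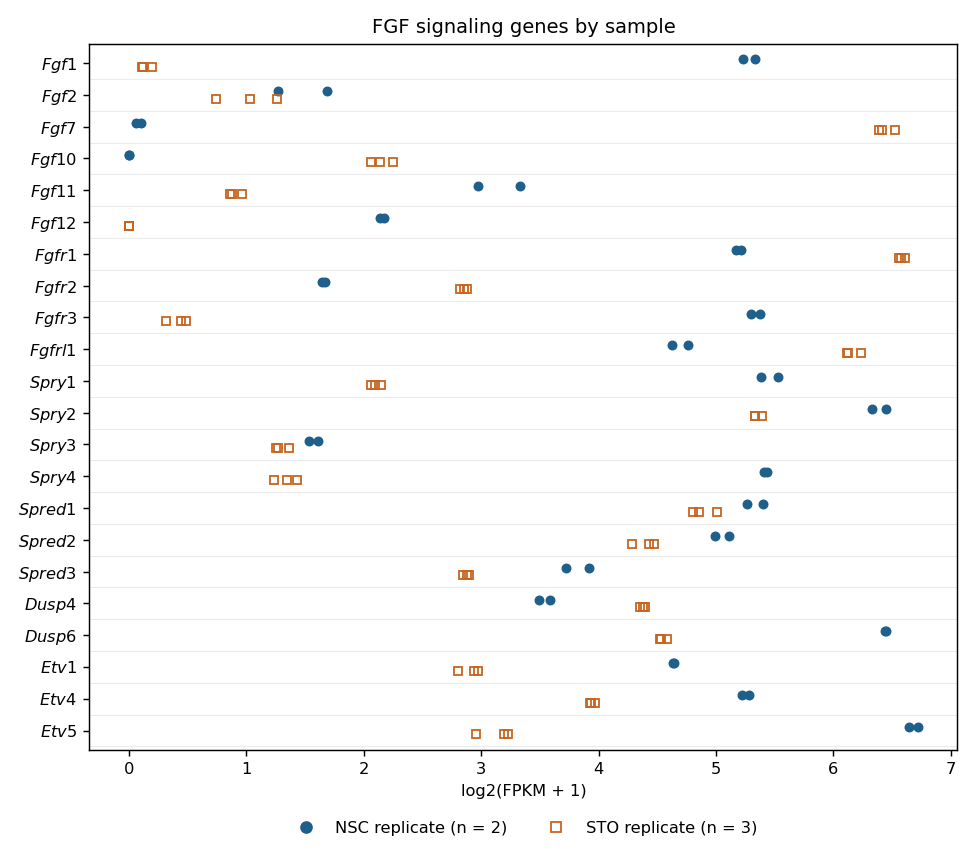
Level of the 22 tested genes in every sample, as log2(FPKM + 1) on the horizontal axis, with NSC samples as filled circles and STO samples as open squares. Fgf1, Fgfr3, Spry4 and Etv5 sit far to the right in NSC and Fgf7 in STO, while the samples of Fgf2, whose direction turned under quantile normalization as that of Spry3 did, nearly touch.

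The secreted ligands differed in kind between the cell types. NSC expressed Fgf1, which encodes the ligand that binds every FGF receptor, at 36.6 and 39.4 FPKM, and the STO samples held 0.147, 0.0792 and 0.0893 FPKM. Both NSC samples were thus far above all STO samples, in which only 33 fragments in all were implied. The ratio of the means was 361 (95% interval 257 to 524, counting error of the STO fragments only), and the log2 difference, STO minus NSC, was -5.14 ± 0.06 (SE, limma adjusted p = 6.76e-09). Fgf1 lies at chr18:38998327-39078353 (mm9).

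STO expressed Fgf7, the keratinocyte growth factor, at 83.0, 90.9 and 84.1 FPKM, against 0.071 and 0.043 FPKM in NSC. No NSC sample came near the lowest STO sample, and 10 fragments in all were implied in NSC. The ratio was 1497 (95% interval 814 to 3123, counting error of the NSC fragments only) and the log2 difference 6.36 ± 0.06 (limma adjusted p = 4.75e-09), which placed Fgf7 (chr2:125860394-125916921, mm9) at rank 37 of 12277 among the genes higher in STO. Its close relative Fgf10 was listed at 0 in both NSC samples and measured 3.18, 3.77 and 3.39 FPKM in STO. The fitted difference of Fgf10, 2.15 ± 0.07 (limma adjusted p = 3.29e-07), depends on the pseudocount (5.14 with 0.1 FPKM in place of 1) and gives no fold.

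Fgf2, the gene of the factor added to the NSC medium, was low in both cell types. It measured 1.42 and 2.21 FPKM in NSC and 1.40, 0.668 and 1.05 FPKM in STO. The lower NSC sample was just above the highest STO sample, and the difference of -0.47 ± 0.18 (limma adjusted p = 0.048) passed the threshold narrowly. It did not pass without NSC replicate 1 (-0.67, adjusted p = 0.0834), without NSC replicate 2 (-0.26, adjusted p = 0.387), without STO replicate 2 (-0.33, adjusted p = 0.0965) or without STO replicate 3 (-0.48, adjusted p = 0.0871), and with quantile normalization the sign turned (0.072, adjusted p = 0.75).

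The 14 other secreted ligands did not reach 1 FPKM in either cell type and were not tested. Fgf5, known from the epiblast (0.267 and 0.209 FPKM), and Fgf8, a patterning signal of the brain (0.158 and 0.269 FPKM), were above 0.1 FPKM in both NSC samples and listed at 0 in STO. The hormone Fgf21 was listed at 0 in one NSC sample, held 0.202 FPKM in the other and 0.399 to 0.572 FPKM in STO. Fgf18 held 0.115 to 0.303 FPKM in STO and 0.0944 to 0.103 FPKM in NSC. Fgf3, Fgf4 and Fgf20 were listed at 0 in all 5 samples, and the other 7 (Fgf6, Fgf9, Fgf15, Fgf16, Fgf17, Fgf22 and Fgf23) did not exceed 0.131 FPKM in any sample. Summed over the 18 secreted ligands, NSC held 40.7 ± 2.40 FPKM (SD, n = 2) and STO 91.4 ± 4.33 FPKM (SD, n = 3). Fgf1 made up 93.4% ± 0.640 of this sum in NSC, and Fgf7 94.0% ± 0.272 in STO.

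**Figure D2:**
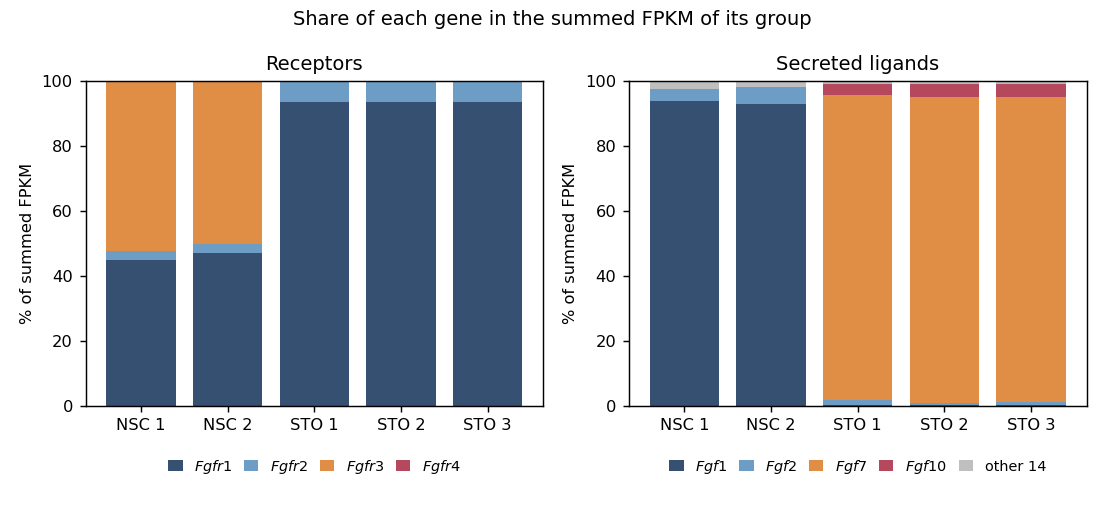
Share of each gene in the summed FPKM of the 4 receptors (left) and the 18 secreted ligands (right), in percent, with 1 bar for each sample. Fgfr1 and Fgfr3 divide the NSC receptor sum while Fgfr1 alone holds over 93% in STO, and the leading ligand is Fgf1 in NSC and Fgf7 in STO.

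The FGF homologous factors Fgf11 to Fgf14 encode proteins that stay inside the cell and bind voltage-gated sodium channels. Fgf11 measured 9.05 and 6.85 FPKM in NSC and 0.820, 0.948 and 0.837 FPKM in STO, a ratio of 9.16 and a log2 difference of -2.25 ± 0.11 (limma adjusted p = 2.81e-06). Fgf12 measured 3.41 and 3.51 FPKM in NSC and was listed at 0 in all STO samples, with a fitted difference of -2.16 ± 0.04 (limma adjusted p = 3.69e-08) that depends on the pseudocount (-5.15 with 0.1 FPKM). Both genes were higher in every NSC sample. Fgf13 (0.815 and 0.907 FPKM in NSC, listed at 0 in STO) and Fgf14 (0.732 and 0.918 FPKM against 0.0959 to 0.267 FPKM) were too low to be tested. The sum of all 4 was 13.1 ± 1.29 FPKM in NSC and 1.02 ± 0.075 FPKM in STO.

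The receptor tyrosine kinases went in opposite directions. Fgfr3, a receptor of cortical progenitors and of glia, measured 40.6 and 38.4 FPKM in NSC and 0.361, 0.247 and 0.404 FPKM in STO. It was near 0 in every STO sample, with a ratio of 117 and a log2 difference of -4.92 ± 0.07 (limma adjusted p = 1.22e-08). The gene lies at chr5:34064373-34079717 (mm9). The astrocyte and oligodendrocyte markers given above were also higher in NSC, as 43.7% of all tested genes were. Whether such cells have a part in the level of Fgfr3 was not tested.

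Fgfr1, which is expressed in most mesenchymal cells and in neural progenitors, was present in both cell types, at 34.9 and 36.1 FPKM in NSC and 96.8, 93.1 and 94.7 FPKM in STO. All STO samples lay above both NSC samples, and the ratio was 2.67 (log2 difference 1.39 ± 0.05, limma adjusted p = 7.35e-07). Fgfr2 followed at a lower level, with 2.13 and 2.18 FPKM in NSC and 6.34, 6.07 and 6.25 FPKM in STO, a ratio of 2.89 (1.19 ± 0.05, limma adjusted p = 1.54e-06). Fgfrl1 encodes a receptor-like protein that binds FGF but has no kinase domain. It measured 23.7 and 26.1 FPKM in NSC and 74.2, 68.3 and 68.8 FPKM in STO, and was higher in every STO sample with a ratio of 2.83 (1.47 ± 0.07, limma adjusted p = 2.37e-06). Fgfr4 reached at most 0.0646 FPKM in any sample and was not tested.

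Summed over Fgfr1 to Fgfr4, the receptors reached 77.2 ± 0.67 FPKM in NSC and 101 ± 2.04 FPKM in STO, so that the sums lay closer together than the levels of Fgfr3. Fgfr3 took 51.1% ± 1.61 of the sum in NSC and Fgfr1 46.0% ± 1.5. In STO Fgfr1 took 93.5% ± 0.111 and Fgfr3 0.332% ± 0.0765.

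The split of a gene over its RefSeq transcripts, as estimated by the authors' program, differed between the cell types for Fgfr1. The transcript NM_001079909 was estimated at 0 in both NSC samples and at 49.5, 48.1 and 49.2 FPKM in STO, where it made up 51.2 to 52.0% of the gene. The other 2 transcripts were estimated at 16.1 to 20.0 FPKM in NSC and 21.1 to 25.1 FPKM in STO. Taken alone, they differed less between the cell types than the whole gene did. With the highest transcript alone standing for each gene, the difference of Fgfr1 was 5.64 on the log2 scale. For Fgfr3 the split was unsteady between the NSC samples, where NM_001205270 was estimated at 7.76 FPKM in one and 0 in the other, while the sums of the gene lay close together. Of Spry1, the transcript NM_001305440 made up 59.5 and 56.7% in NSC and 14.2 to 25.9% in STO. Transcripts of a gene share most of their sequence, so their split is less certain than their sum, and no test was made of it.

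**Figure D3:**
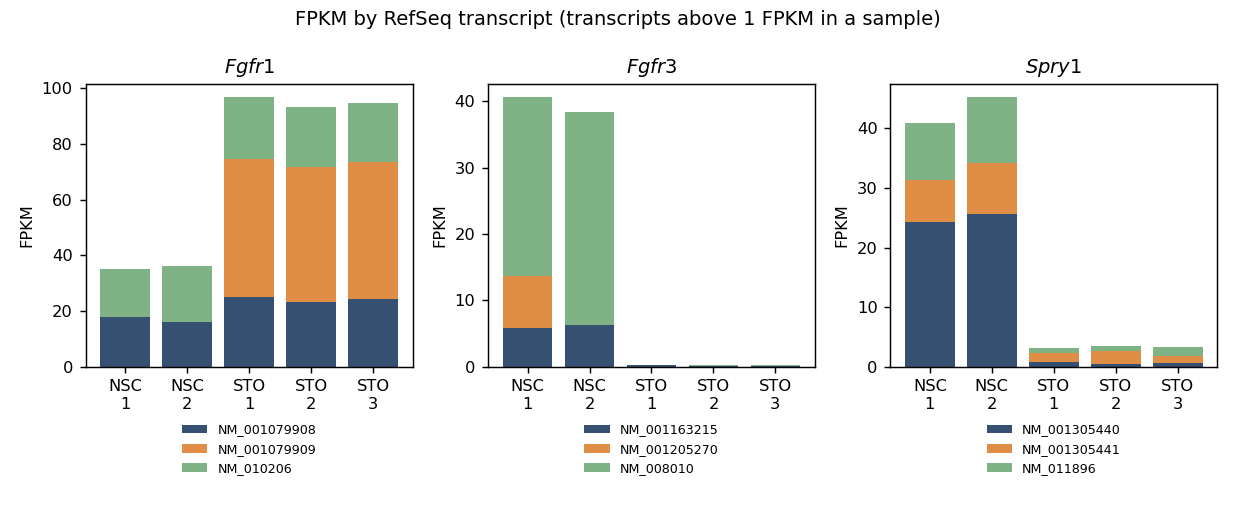
Estimated FPKM of the RefSeq transcripts of Fgfr1, Fgfr3 and Spry1, stacked for each of the 5 samples. For Fgfr1 the transcript NM_001079909 appears only in the 3 STO bars, at 48.1 to 49.5 FPKM.

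All 4 Sprouty genes, whose proteins hold back RAS and ERK activation downstream of the receptors, were higher in NSC, although by very different amounts and with Spry3 turning direction under quantile normalization. Spry4 measured 42.2 and 41.6 FPKM in NSC and 1.69, 1.54 and 1.35 FPKM in STO, a ratio of 27.4 (log2 difference -4.09 ± 0.07, limma adjusted p = 2.52e-08). Spry1 measured 40.8 and 45.2 FPKM against 3.17, 3.42 and 3.29 FPKM, a ratio of 13.1 (-3.36 ± 0.06, limma adjusted p = 4e-08). Both were high in NSC and low in every STO sample.

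Spry2 was the most abundant Sprouty gene in both cell types, at 86.4 and 79.3 FPKM in NSC and 41.1, 39.3 and 39.4 FPKM in STO. The groups did not overlap, but the ratio was only 2.08 (-1.03 ± 0.06, limma adjusted p = 6.82e-06). Spry3, which the files place on an unplaced part of chromosome X, measured 2.05 and 1.90 FPKM in NSC and 1.41, 1.39 and 1.58 FPKM in STO (-0.27 ± 0.06, limma adjusted p = 0.00404), and with quantile normalization the sign of this difference turned (0.11, adjusted p = 0.148). The Sprouty genes summed to 170 ± 2.50 FPKM in NSC and 46.2 ± 0.987 FPKM in STO. Spry2 made up 48.8% ± 2.26 of the sum in NSC and 86.4% ± 0.328 in STO, and Spry4 24.7% ± 0.105 and 3.30%.

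The Spred genes encode relatives of Sprouty that recruit the RAS-inactivating protein neurofibromin to the membrane, and they differed less. Spred1 measured 37.4 and 41.2 FPKM in NSC and 27.9, 31.1 and 26.9 FPKM in STO, a ratio of 1.37 (-0.45 ± 0.08, limma adjusted p = 0.00208). Spred2 measured 30.9 and 33.5 FPKM against 20.5, 21.2 and 18.5 FPKM, a ratio of 1.60 (-0.66 ± 0.08, limma adjusted p = 0.000222). Both were higher in each NSC sample than in any STO sample. Spred3 measured 14.1 and 12.2 FPKM against 6.19, 6.47 and 6.37 FPKM, a ratio of 2.07 (-0.94 ± 0.07, limma adjusted p = 2.83e-05). The 3 genes summed to 84.7 ± 3.20 FPKM in NSC and 55.1 ± 3.55 FPKM in STO, and none of their differences of log2(FPKM + 1) reached 1. That of Spred3 was -1.04 with a pseudocount of 0.1 FPKM and also without NSC replicate 2. Scaled to TPM, Spred1 differed by -0.28.

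The PEA3 factors are ETS transcription factors that rise with FGF signaling in many tissues. Etv5 measured 98.9 and 104 FPKM in NSC and 8.40, 8.18 and 6.78 FPKM in STO. Its level in NSC was the highest among the 39 genes, and the ratio was 13.1 (-3.55 ± 0.09, limma adjusted p = 1.56e-07). Etv1 measured 23.8 and 24.0 FPKM against 6.68, 6.85 and 5.96 FPKM, a ratio of 3.68 (-1.73 ± 0.07, limma adjusted p = 1.09e-06). Etv4 measured 36.3 and 38.0 FPKM against 14.6, 14.2 and 14.3 FPKM, a ratio of 2.59 (-1.31 ± 0.05, limma adjusted p = 9.67e-07). Every NSC sample was above every STO sample for all 3 factors. They summed to 163 ± 5.28 FPKM in NSC and 28.6 ± 1.44 FPKM in STO. Etv5 held 62.5% ± 0.402 of this sum in NSC, while in STO Etv4 led with 50.2% ± 2.28 and Etv5 held 27.1% ± 1.75.

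The phosphatase genes parted. Dusp6 encodes a cytoplasmic phosphatase that acts on ERK, and it measured 86.1 and 85.7 FPKM in NSC and 22.1, 21.9 and 22.9 FPKM in STO, a ratio of 3.85 (-1.90 ± 0.05, limma adjusted p = 1.47e-07). Dusp4 encodes a nuclear one, and it measured 10.3 and 11.01 FPKM in NSC and 19.8, 19.4 and 20.1 FPKM in STO, a ratio of 1.86 the other way (0.84 ± 0.05, limma adjusted p = 1.29e-05). Dusp4 was the single one of the 12 feedback and PEA3 genes of this set that was higher in STO. The other 11 were higher in NSC, with the turn of Spry3 under quantile normalization given above. Further feedback genes are on the list of other genes around ERK, given below, of which 14 of 19 tested were higher in STO. Of all tested genes 43.7% were higher in NSC and 41.9% in STO. The NSC samples were grown in a medium that holds bFGF and EGF, and what the medium and the cell type each add cannot be told apart.

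**Figure D4:**
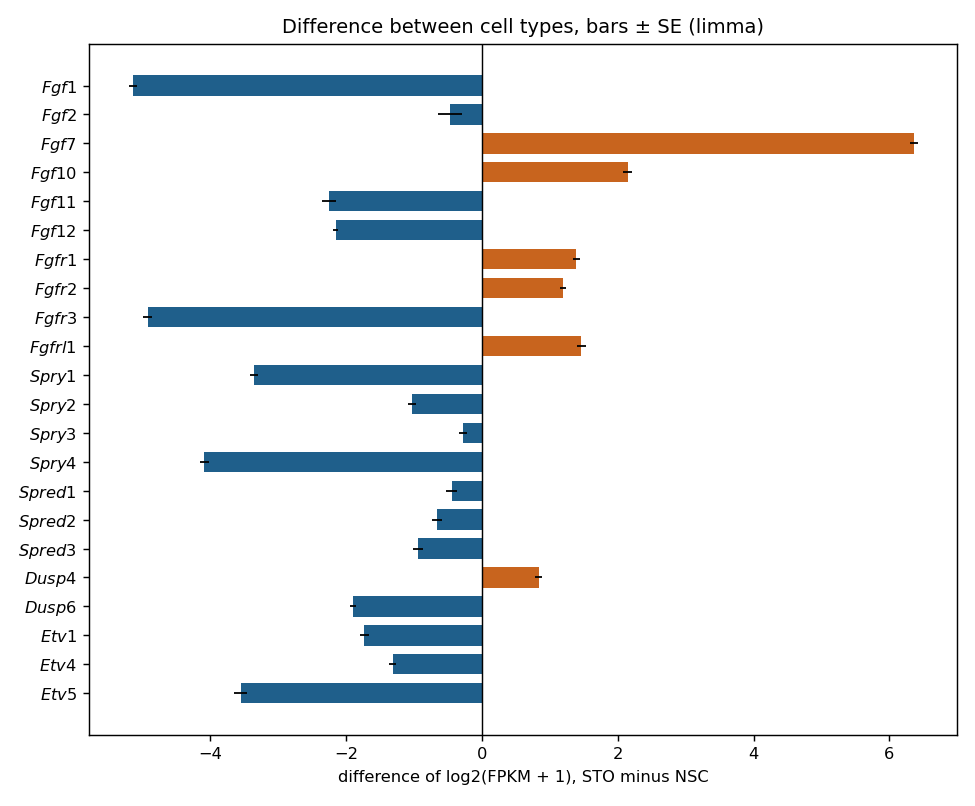
Difference of log2(FPKM + 1) between the cell types, STO minus NSC, for the 22 tested genes, with bars to the right where STO was higher and lines for ± SE from limma. Ligands and receptors point both ways, from -5.14 for Fgf1 to 6.36 for Fgf7, and the feedback and PEA3 genes point to NSC except Dusp4, with Fgf2 and Spry3 turning under quantile normalization.

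Promoters are shown for 5 feedback and PEA3 genes that were higher in NSC and for Fgf7, the ligand that differed most toward STO. Each window runs from 250 bases before to 50 bases after a RefSeq transcription start on GRCm38.p6, in the direction of the gene. The windows are Spry1 at chr3:37639697-37639996 (plus strand), Spry2 at chr14:105896770-105897069 (minus strand), Spred3 at chr7:29168598-29168897 (minus strand), Dusp6 at chr10:99262981-99263280 (plus strand), Etv5 at chr16:22439521-22439820 (minus strand) and Fgf7 at chr2:126034408-126034707 (plus strand), and the one of Etv5 is the more upstream of its pair. Capitals mark TGAATGAA, an octamer that the repressor Capicua is known to bind, in Spred3 and CCGGAA, a core that ETS factors bind, in Spry2.
Spry1: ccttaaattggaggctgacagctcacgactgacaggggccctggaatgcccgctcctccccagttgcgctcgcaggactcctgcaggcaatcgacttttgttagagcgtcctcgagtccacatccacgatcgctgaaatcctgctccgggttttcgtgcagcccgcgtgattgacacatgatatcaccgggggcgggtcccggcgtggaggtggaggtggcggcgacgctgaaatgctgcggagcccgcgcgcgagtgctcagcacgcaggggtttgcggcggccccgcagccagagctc
Spry2: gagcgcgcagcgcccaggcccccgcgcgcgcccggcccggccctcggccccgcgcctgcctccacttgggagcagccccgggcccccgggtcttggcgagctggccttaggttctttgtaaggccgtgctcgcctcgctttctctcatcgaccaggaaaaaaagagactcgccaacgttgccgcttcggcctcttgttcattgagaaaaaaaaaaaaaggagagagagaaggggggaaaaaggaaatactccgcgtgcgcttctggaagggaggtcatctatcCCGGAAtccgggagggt
Spred3: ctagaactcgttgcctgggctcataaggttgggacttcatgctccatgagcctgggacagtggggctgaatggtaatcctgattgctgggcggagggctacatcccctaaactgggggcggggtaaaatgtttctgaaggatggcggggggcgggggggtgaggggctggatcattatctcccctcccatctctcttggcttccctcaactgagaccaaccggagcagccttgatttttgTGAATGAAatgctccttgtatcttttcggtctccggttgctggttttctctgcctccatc
Dusp6: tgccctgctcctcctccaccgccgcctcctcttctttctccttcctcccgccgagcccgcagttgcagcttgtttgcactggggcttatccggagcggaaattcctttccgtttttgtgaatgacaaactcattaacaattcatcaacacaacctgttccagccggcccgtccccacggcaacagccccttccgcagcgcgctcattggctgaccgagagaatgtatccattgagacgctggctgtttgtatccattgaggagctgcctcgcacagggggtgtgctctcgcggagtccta
Etv5: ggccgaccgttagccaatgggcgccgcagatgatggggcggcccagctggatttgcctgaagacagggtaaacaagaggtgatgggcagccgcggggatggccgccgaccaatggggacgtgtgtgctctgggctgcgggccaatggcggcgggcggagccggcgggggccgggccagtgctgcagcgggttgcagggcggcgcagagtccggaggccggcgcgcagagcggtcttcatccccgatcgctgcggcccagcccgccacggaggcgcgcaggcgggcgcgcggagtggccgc
Fgf7: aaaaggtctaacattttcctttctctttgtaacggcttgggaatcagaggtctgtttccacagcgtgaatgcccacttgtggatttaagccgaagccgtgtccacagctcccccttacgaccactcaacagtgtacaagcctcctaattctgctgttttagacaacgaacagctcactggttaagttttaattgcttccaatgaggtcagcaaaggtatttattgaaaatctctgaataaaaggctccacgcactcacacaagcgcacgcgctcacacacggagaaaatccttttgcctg

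The table of RefSeq promoters held 37 windows for 28 of the 39 genes. Searched on both strands, CCGGAA was in 5 of the 37 windows (Fgf5, Fgf12, Fgfr4, Fgfrl1 and Spry2), against 14.9% of all 32851 windows. TGAATGAA was in 2 (Fgf21 and Spred3), against 1.30% of all, and TGAATGGA, a second Capicua octamer, in 1 (Fgf23), against 1.21%. The cAMP response element TGACGTCA was in 0 of the 37, and 1.79% of all windows held it. In Spry2 the match started 33 bases after the start and in Spred3 10 bases before it. Apart from these, the windows of Spry1, Dusp6, Etv5 and Fgf7 held none of the 4 motifs searched. For Capicua only TGAATGAA and TGAATGGA were searched, and other octamers that it may bind were not. The lack of a match, as in Dusp6 or Spry2, therefore does not show that a window holds no Capicua octamer. A match is a description of the letters and not a measured site, and genes without a window include Fgf1, Fgfr1, Spry4, Etv4 and Dusp4.

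Other genes of the pathway were read from 3 lists. Of 29 co-receptors and genes of heparan sulfate, which FGFs need for binding, 21 were tested, and 10 were higher in STO, 7 higher in NSC and 4 did not pass, with a median difference of 0.15. For each of the lists, the shares of all tested genes that were higher in STO (41.9%) and in NSC (43.7%) and the median over them (-0.023) are the background to these counts. Sdc3, the syndecan of neural cells, measured 150 and 162 FPKM in NSC and 4.36, 4.29 and 4.59 FPKM in STO (-4.86 ± 0.06, limma adjusted p = 7.52e-09). The glypican Gpc2 (9.62 and 8.22 FPKM against 0.0154 to 0.0706 FPKM, -3.24 ± 0.07, or -5.95 with a pseudocount of 0.1 FPKM) and Sulf2, which trims sulfate from heparan sulfate (90.6 and 91.4 FPKM against 20.4 to 22.2 FPKM, -2.04 ± 0.05), were likewise higher in every NSC sample. The glypican Gpc4 went the other way, with 7.06 and 6.77 FPKM in NSC and 27.9 to 33.1 FPKM in STO (2.02 ± 0.08). The co-receptors of the hormone FGFs, Kl and Klb, were below the limit for testing.

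By calls, genes of the cascade from receptor to ERK split close to evenly, as all tested genes did (41.9% higher in STO and 43.7% in NSC). A log2 difference of at least 1 was reached by 4 of them higher in STO and 1 higher in NSC, against 17.1% and 21.3% of all tested genes. Of 21 genes, all tested, 9 were higher in STO, 10 higher in NSC and 2 did not pass (Grb2 and Nf1, with limma adjusted p of 0.864 and 0.588), and the median difference was -0.075. The largest difference was that of the adaptor Shc1, with 6.00 and 5.66 FPKM in NSC and 57.5, 54.6 and 51.3 FPKM in STO (3.02 ± 0.07, limma adjusted p = 6.62e-08). The docking protein gene Gab1 was higher in NSC (21.8 and 23.6 FPKM against 5.00 to 5.19 FPKM, -1.96 ± 0.06). The RAS GTPase-activating gene Rasa1 (1.5 ± 0.05) and the phosphatase gene Ptpn11 (1.23 ± 0.05), whose product SHP2 passes the signal on, were higher in STO, and with its highest transcript alone Ptpn11 differed by 0.73.

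Most other genes around ERK were higher in STO. The list mixes genes that many growth factors and serum induce with genes that restrain ERK or its targets, such as Il17rd and Cic. Of 21 listed, 19 were tested, of which 14 were higher in STO, 3 higher in NSC and 2 did not pass (Dusp10 and Phlda1), against 41.9% of all tested genes higher in STO and 43.7% in NSC. The median difference was 0.96, and the difference between this list and the Sprouty and PEA3 genes was not tested. Fosl1, a partner of JUN, was listed at 0 in both NSC samples and measured 54.3, 56.3 and 55.7 FPKM in STO (fitted difference 5.82 ± 0.05, or 9.12 with a pseudocount of 0.1 FPKM). Errfi1, a feedback inhibitor of the EGF receptor, measured 7.04 and 7.81 FPKM in NSC and 77.8 to 80.7 FPKM in STO (3.26 ± 0.06, limma adjusted p = 3.13e-08). The immediate early gene Fos (15.2 and 15.3 FPKM against 126 to 132 FPKM, 2.99 ± 0.05) and the cytokine gene Lif (1.10 and 1.52 FPKM against 12.9 to 14.6 FPKM, 2.66 ± 0.10) were also higher in every STO sample. The 3 genes higher in NSC, named after their values were seen, were the G1 cyclin gene Ccnd1 (-2.42 ± 0.06), Myc (-0.82 ± 0.10) and the phosphatase gene Dusp8 (-0.62 ± 0.07).

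**Figure D5:**
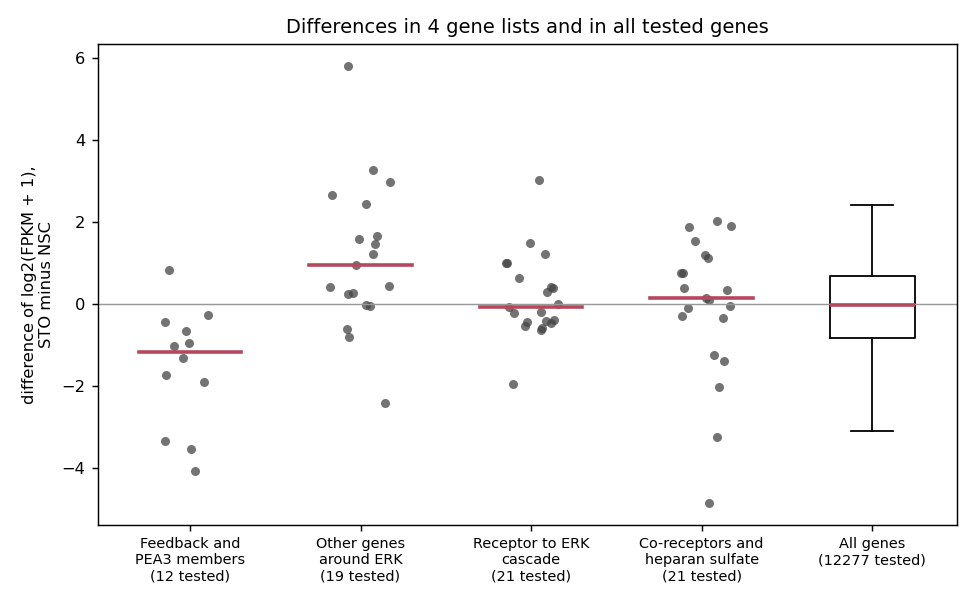
Difference of log2(FPKM + 1), STO minus NSC, for the tested genes of 4 lists as points with the median as a line, beside all 12277 tested genes as a box of quartiles with whiskers at the 5th and 95th percentiles. The feedback and PEA3 genes lie mostly below 0 and the other genes around ERK mostly above it, and Spry3 turns under quantile normalization.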

How the data were processed

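RNA was measured by paired-end RNA-seq from a stranded mRNA kit in NSC (n = 2) and STO (n = 3). The authors aligned reads to mm9 with HISAT2 (given as version 4.8.2) and estimated transcripts of the UCSC RefSeq annotation with Cufflinks 2.2.1, per the labels and methods. Whether counting used strand is not given in the sources used here. The deposited values are FPKM per transcript with confidence bounds, not counts, so no count model was fitted.

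Transcripts were given symbols from a RefSeq table of GRCm38.p6, used for names only (39951 of 40201 transcripts, 99.4%), and FPKM were summed by symbol. Genes with a mean of at least 1 FPKM in a cell type were compared by limma 3.58.1 (R 4.3.3) with a trend on log2(FPKM + 1), without covariates and two-sided, and p-values were adjusted by Benjamini-Hochberg over all 12277 tested genes. Differences on this scale understate the change of low genes. The fit was tested on simulated data in which far fewer genes changed than were called here, so that test does not cover the setting of these data. Implied fragments were derived from the upper confidence bound, read as 2 SD of a Poisson count, and intervals built on them (95%, exact Poisson) cover counting error only. Coordinates of genes are the deposited mm9 loci, and promoters come from RefSeq with GRCm38.p6 coordinates. Tables were handled in Python 3.11.15 with pandas 2.3.3.

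The genes and lists were chosen with earlier results of these data known, and 3 genes were left out of the marker and cascade lists and of their counts and are not reported here. All 39 genes were accounted for, those with a mean of at least 1 FPKM in a cell type with every sample's value, and of each other list up to 4 genes with the largest differences were named. Alternatives were other pseudocounts, filters, scalings, transcript choices, a replicate block and leaving out each sample.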

Additional observations from a re-analysis of the deposited data

How the results depend on the processing

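Of 472 values recomputed for 34 named genes, 461 kept direction and call, 9 kept direction and lost the call and 2 turned. All 9 were Fgf2, and besides leaving out samples its call was lost with no filter (adjusted p = 0.0807), the highest transcript only (0.0614), a pseudocount of 0.1 (0.0629), the TPM scale (0.103) and the replicate block (0.0816). Fgf2 (0.072) and Spry3 (0.11) turned with quantile normalization, and the cause was not tested. The 2 cell types share only a number between replicates, and their deviations did not correlate (0.003 and 0.065). With that number as a replicate block, 15 of the members were higher in NSC and 6 in STO, and 5249 and 4988 of all tested genes. Leaving out each sample gave 15 to 16 and 6 members. Scaling to TPM moved the median of all genes by 0.17 and let more genes pass the filter, 13131 with 25 members. Of these, 17 members were higher in NSC and 7 in STO, and 5078 and 6163 of all genes, against 5371 and 5147. Asking for a log2 difference of at least 1 left 2613 genes higher in NSC and 2099 in STO. Taking the highest transcript only, Etv5 held 66.6% of its group in NSC and 32.4% in STO, Spry2 54.6 and 91.7%, Spry4 27.6% in NSC, Fgfr1 0 and 91.9%, and Fgfr3 94.7 and 0.238%. These moves follow from dropping transcripts, since the one taken for Fgfr1 was estimated at 0 in NSC. On the given strand only, CCGGAA was in 8.27%, TGAATGAA in 0.715% and TGAATGGA in 0.636% of promoters. Genes near 0 (Fgf7 in NSC, Fgf1 in STO) rest on few fragments.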

Other observations

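Members of the set lie beside each other in the mouse genome (mm9). Spry4 and Fgf1 were neighbours on chromosome 18, with 237 kb and no other gene of the annotation between them, and both were high in NSC and low in STO. On chromosome 3, Fgf2 and Spry1 lay 235 kb apart with 3 genes between them (4930594O21Rik, Nudt6 and Spata5), and here Spry1 differed 13.1-fold while Fgf2 was low in both cell types. Fgf3, Fgf4 and Fgf15 on chromosome 7, spaced by 18.0 and 31.3 kb, and Fgf6 and Fgf23 on chromosome 6, spaced by 48.2 kb, did not exceed 0.108 FPKM in any sample. These pairs were picked after their levels were known, and no test was made of them.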
